A study of Mus musculus with 11 samples.

Results

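Stimulated macrophages carrying a hairpin against GIV were compared with stimulated control macrophages, 5 h after lipopolysaccharide (LPS) at 100 ng/ml. The comparison holds 4 of the 10 libraries in the deposited table, chosen by their labels alone. RAW cells with a short hairpin RNA against GIV (shGIV) gave 3 libraries, from sets 1, 2 and 3. They are called depleted below after that hairpin, and these RNA libraries do not measure GIV protein. RAW cells with a control hairpin (shC) gave 1 library, from set 2. The labels name 11 samples, and the control cells with LPS of set 3 were not analysed here. RAW cells are an established mouse line of macrophage type, and every culture carried a hairpin. The hairpin sequences, the promoter that drives them, and whether a line was a clone or a pool are not given in the sources used here. The series title puts the question as the role of Girdin, another name of GIV, in macrophage polarization by LPS.

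LPS, a component of the outer membrane of Gram-negative bacteria, is sensed by Toll-like receptor 4 (TLR4). The receptor signals through adaptor proteins and IRAK kinases to NF-kB, to MAP kinases with AP-1, and to interferon regulatory factors, which switch on cytokine, chemokine and interferon genes and, with a delay, the proteins that end the response. GIV, the product of Ccdc88a, binds actin, modulates trimeric G proteins of the inhibitory class and is known as an activator of PI3K and Akt signalling.

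Levels are in TPM, the abundance of a transcript per unit of its length as a share of the library, so the sequencing depth behind a value is unknown. Differences are depleted minus control on the log2(TPM + 1) scale, which understates the change of genes near 0. Each is given with the standard error (SE) of a limma model and a Benjamini-Hochberg adjusted p over all 13711 genes tested, and a gene is called higher or lower where that p is under 0.05. The model held 4 groups, the 4 LPS libraries and 5 without LPS (2 control, 3 depleted). The control library without LPS of set 2 was left out, since the small RNA gene Mir6236 alone accounted for 57.8% of its total, and no more than 8.78% of any other. With 1 control library after LPS, its spread is taken from the remaining groups. For a gene listed at 0 in every resting library those libraries add no spread, so its SE and adjusted p can be too small. Il33, Bcl2a1a, Tnfsf4 and Mir146 below are of this kind. The same can hold for genes near 0 at rest. Ccl7, Il1a, Ccl22, Tnfsf15, Il6 and Ifnb1 were under 1 TPM in every resting library of the fit. The labels do not say whether the sets were separate cultures, so p-values measure only the spread between these samples.

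The 3 depleted LPS libraries were closer to each other than to the control LPS library. The median absolute log2 difference over genes was 0.133 to 0.148 between depleted libraries and 0.196 to 0.232 between the control and a depleted library. Composition moved with the groups too: protein-coding genes took 81.7% of TPM in control cells and 74.1% to 77.0% in the depleted ones, and small RNA genes took 6.41% against 8.48% to 14.4%. The part of this in the results below was not tested, but each was recomputed under 4 other scalings. All 4 libraries carried the macrophage label in their transcripts: 11 of 12 macrophage markers were at 1 TPM or more in every library, and the 12th, Mertk, was at 0.0635 TPM or less. The markers' summed level was 14754 TPM in control cells and 12277 to 12857 TPM in depleted cells. Markers of T cells summed to at most 0.433 TPM, of mast cells to 0.0759 TPM, of fibroblasts to 0.206 TPM and of epithelial cells to 0.132 TPM, with Cd3e listed at 0 in all 4 libraries. Those of B cells summed to at most 1.3 TPM, of endothelial cells to 3.63 TPM and of dendritic cells to 4.52 TPM, mostly Xcr1. Neutrophil markers summed to 13.4 to 17.6 TPM, nearly all from S100a8, with Ly6g, Elane, Ltf and S100a9 listed at 0 in all 4.

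Ccdc88a (GRCm38 chromosome 11, 29373658 to 29510808, plus strand), the transcript the hairpin targets, was at 5.77 TPM in control cells and 3.08, 2.62 and 3.39 TPM in depleted cells of sets 1, 2 and 3. All 3 depleted libraries lay below the control library, and their mean was 3.03 ± 0.387 TPM (SD, n = 3), 0.525 times the control level. The difference of -0.75 ± 0.19 (SE) did not pass the test over all genes (limma adjusted p = 0.0681). The transcript was still detected in every depleted library.

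Of the 13711 genes tested, 122 (0.89%) were called higher and 600 (4.38%) lower in depleted than in control cells after LPS, 722 in all (5.27%). All 722 had the 3 depleted libraries on 1 side of the control library. Over all genes tested, 2167 (15.8%) had all 3 depleted libraries above the control and 6682 (48.7%) all 3 below. Among the called genes 670 were protein coding, and 157 differed by at least 1 on the log2 scale, 60 higher and 97 lower. The median over all genes was -0.12, so part of the excess of lower genes goes with the scale of the libraries. With TMM scaling, which brought that median to 0.03, 347 genes (2.53%) were called higher and 321 (2.34%) lower. Quantile normalization gave 228 and 305, rescaling over protein-coding genes 208 and 408, and rescaling without mitochondrial genes and the 100 most abundant ones 234 and 452. All 122 higher genes and 264 of the 600 lower ones were called under all 5 scalings. The values as deposited had the lowest median, against -0.03 to 0.03 under the 4 other scalings, which thus shift most differences upward. That all higher calls were kept therefore says little about them.

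**Figure D1:**
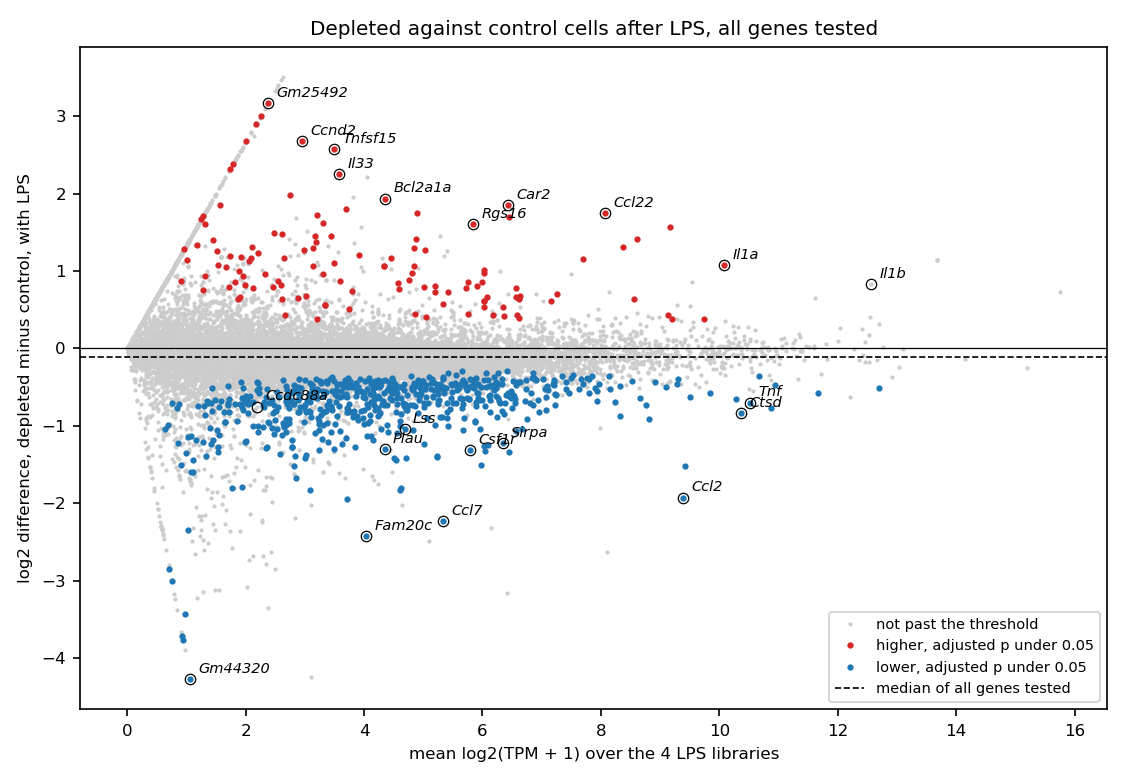
Each point is 1 of the 13711 genes tested. The x axis is the mean log2(TPM + 1) over the 4 LPS libraries and the y axis is the log2 difference between depleted and control cells with LPS. Called genes are coloured, circled genes are named, and the dashed line marks the median of all genes at -0.12. Genes called lower form a dense band just below the bulk of genes, while the genes called higher are fewer.

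The number of calls depended on the libraries that estimate the spread. With all 10 libraries limma called none, with 221 genes at an unadjusted p under 0.05 against 3031 with 9, and the same libraries after TMM scaling gave 16 higher and 5 lower. The 4 LPS libraries alone gave 35 higher (0.292%) and 34 lower (0.283%) of 11995 genes. Leaving out depleted LPS library 3 gave 80 higher and 245 lower, and leaving out depleted LPS library 2 gave 90 and 367. Without depleted library 1, 2 or 3 of the resting cells the counts were 84 and 353, 82 and 276, or 81 and 282. The control LPS library cannot be left out, as no other holds that group. Of 75 called genes that the naming rule chose, 51 were called in every fit with 1 library left out, and all other 24 lost their call without depleted LPS library 3. Where 1 of these 24 is given below, the highest adjusted p over those fits follows it. Of the same 75 genes, 66 were called under all 5 scalings. Rac1, Rgs2, Soat1, Atf3, Plin2 and Ccnb1, all called lower below, were among those not called after TMM scaling.

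**Figure D2:**
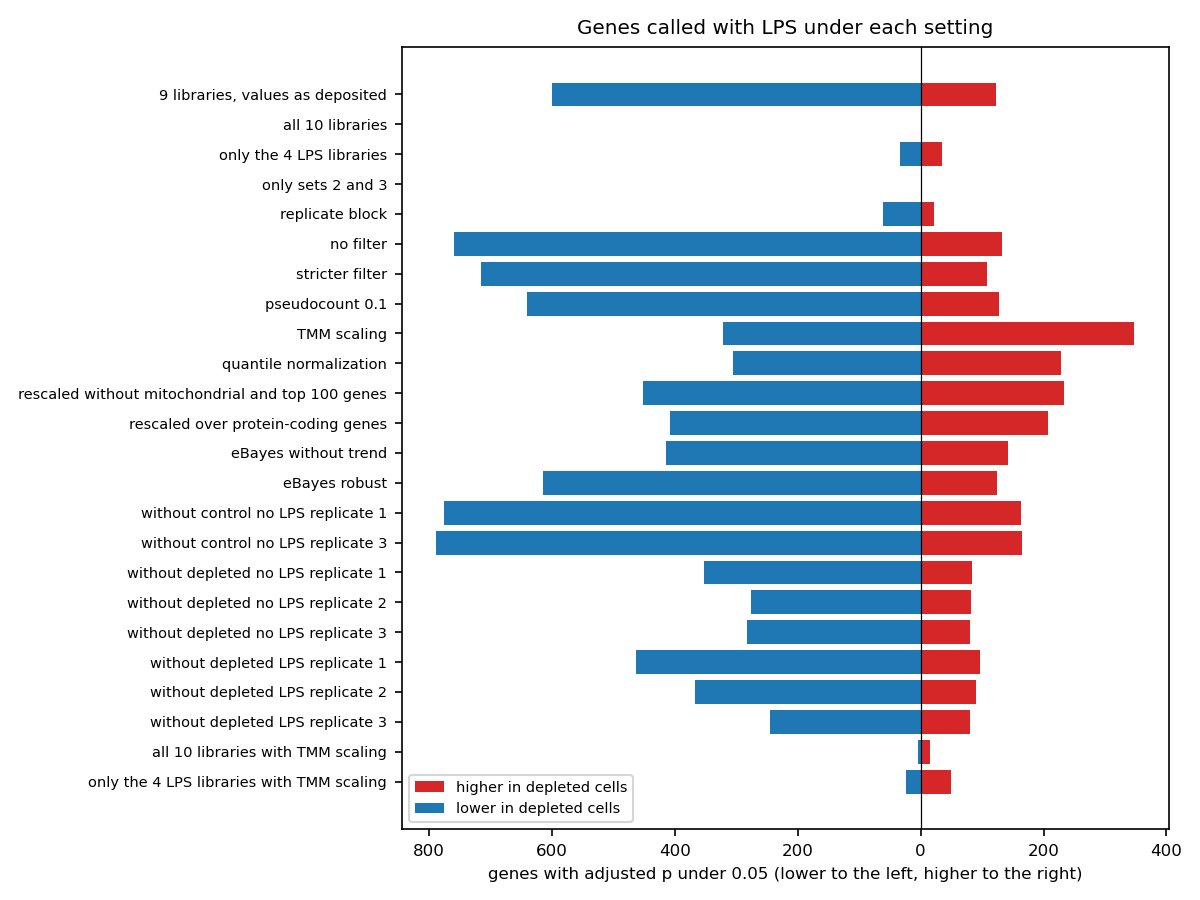
Bars give the number of genes called higher (red, to the right) and lower (blue, to the left) in depleted cells with LPS under each setting, named on the y axis. The counts were 122 and 600 for 9 libraries as deposited, 0 and 0 with all 10 libraries, and 347 and 321 with TMM scaling.

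Signalling genes from the receptor to NF-kB stayed near the median of all genes. Of 21 genes of the TLR4 receptor and its proximal signalling 1 was called lower (4.76%, against 4.38% over all genes). It was Irak3, which encodes an inactive kinase that restrains IRAK signalling. Irak3 was at 24.2 TPM in control cells and 12.7, 13.4 and 11.6 TPM in depleted cells, a difference of -0.89 ± 0.11 (adjusted p = 0.0085). Tlr4 itself was at 10.4 TPM against 12, 8.66 and 7.98 TPM, so that the groups overlapped, with a difference of -0.13 ± 0.21 that turned to 0.03 with TMM scaling. At an unadjusted limma p under 0.05 were 2 of 14 NF-kB subunits and inhibitors, against 3031 of all 13711 genes. None of the 14 was called, with 0 to 1 higher over the 5 scalings. Their median was 0.09 above that of all genes. Nfkbia, the inhibitor IkB alpha, was at 933 TPM against 897, 1045 and 888 TPM, and Tnip1, which binds the NF-kB inhibitor A20, at 265 TPM against 205, 233 and 212 TPM.

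Among 17 early transcription factors of the AP-1 and EGR families 2 were lower (11.8%, against 4.38% over all genes) and none was higher. Jun, a subunit of AP-1, was at 21.3 TPM in control cells and 11.8, 11.4 and 10.2 TPM in depleted cells (-0.88 ± 0.16, adjusted p = 0.026, up to 0.0675 with a library left out). Atf3, a repressor induced by stress and TLR signals, was at 431 TPM against 275, 266 and 256 TPM (-0.70 ± 0.16, adjusted p = 0.049, up to 0.117). Among 17 MAP kinases and MAP kinase phosphatases 2 were higher (11.8%, against 0.89% over all genes) and 1 lower (5.88%, against 4.38%). The called members were phosphatases, which moved in opposite directions. Dusp4 was at 173 TPM in control cells and 67.6, 75.6 and 61.4 TPM in depleted cells, 2.53-fold lower (-1.33 ± 0.12, adjusted p = 0.00268). Dusp2 was at 39.7 TPM against 75.8, 70.4 and 72.5 TPM, 1.84-fold higher (0.86 ± 0.11, adjusted p = 0.00837), and Dusp1 at 270 TPM against 439, 427 and 399 TPM (0.64 ± 0.14, adjusted p = 0.0446, up to 0.0897). No kinase of that list was called.

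Brakes on inflammation were called in both directions, 2 higher and 1 lower of 20 (10.0% and 5.0%, against 0.89% and 4.38% over all genes). Zfp36l1, which binds AU-rich mRNA and speeds its decay, was at 1.20 TPM in control cells and 4.53, 4.54 and 4.23 TPM in depleted cells, 3.70-fold higher (1.31 ± 0.15, adjusted p = 0.00684). Tnip3, an inhibitor of NF-kB signalling, was at 447 TPM against 617, 579 and 619 TPM (0.43 ± 0.09, adjusted p = 0.0315, up to 0.087). Zc3h12c, of the family of the RNase regnase-1, was at 17.3 TPM against 10.1, 8.75 and 8.28 TPM (-0.87 ± 0.12, adjusted p = 0.0105). The list's median was 0.21 above that of all genes, and 0.21 to 0.25 above it over the 5 scalings.

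The gene of a microRNA known to restrain TLR signalling, Mir146 (GRCm38 chromosome 11, 43374397 to 43374461, minus strand), was among the 12 largest higher differences. It was at 4.12 TPM in control cells and 10.6, 20.5 and 21.6 TPM in depleted cells, and listed at 0 in the 5 resting libraries. All 3 depleted libraries lay above the control (1.80 ± 0.34, adjusted p = 0.0294, up to 0.0709 with a library left out). Total RNA libraries measure RNA of the hairpin locus, not the mature microRNA. Small RNA genes as a class took 8.48%, 14.4% and 12.6% of TPM in the same depleted libraries and 6.41% in the control. How far the Mir146 difference goes with this shift was not tested, and estimates for so short a gene are uncertain. The 2 mature products in RefSeq (GRCm38.p6) are shown to identify the locus, with the seed, bases 2 to 8, in capitals.
mmu-miR-146a-5p: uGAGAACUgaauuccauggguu
mmu-miR-146a-3p: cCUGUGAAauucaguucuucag

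Cytokine transcripts split in direction. Of 16 proinflammatory cytokines tested, 3 were higher and 2 lower, against 0.89% and 4.38% over all genes. Tnfsf15, the ligand TL1A (chromosome 4, 63727084 to 63745113, minus strand), was at 1.95 TPM in control cells and 18.9, 15.4 and 15.9 TPM in depleted cells. This was 8.56-fold higher, the largest ratio among the 5 called members of the list (2.58 ± 0.18, adjusted p = 0.00116). Il1a, interleukin 1 alpha, was at 621 TPM against 1414, 1234 and 1287 TPM, 2.11-fold higher (1.08 ± 0.10, adjusted p = 0.00268). Ifnb1, interferon beta, was at 14.3 TPM against 27.7, 26.1 and 25.5 TPM, 1.85-fold higher (0.84 ± 0.13, adjusted p = 0.0162, up to 0.0541).

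Tnf was lower: 2108 TPM in control cells and 1333, 1368 and 1197 TPM in depleted cells, a mean of 0.616 times the control (-0.70 ± 0.09, adjusted p = 0.00837). Tnfsf9, the ligand of the costimulatory receptor 4-1BB, was also lower (-0.71 ± 0.10, adjusted p = 0.011). Il1b was at 3939 TPM in control cells and 7040, 7022 and 6954 TPM in depleted cells, without overlap, but its difference of 0.83 ± 0.23 did not pass the test (adjusted p = 0.0861, and 0.0396 after TMM scaling). Il6 was at 189 TPM against 307, 254 and 247 TPM (0.51 ± 0.13, adjusted p = 0.0726, and 0.0157 after TMM scaling). The SE of Il1b also draws on the 5 resting libraries, at 0.296 to 1.09 TPM, and the 3 depleted LPS libraries lay close together. The anti-inflammatory cytokine gene Il10 was at 172 TPM against 201, 167 and 182 TPM, so that the groups overlapped. Il33, an alarmin of the interleukin 1 family outside the list, was at 2.70 TPM in control cells and 18.8, 13.6 and 18.0 TPM in depleted cells. All 5 resting libraries listed it at 0, and with LPS it was 6.21-fold higher in depleted cells (2.25 ± 0.20, adjusted p = 0.00268).

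**Figure D3:**
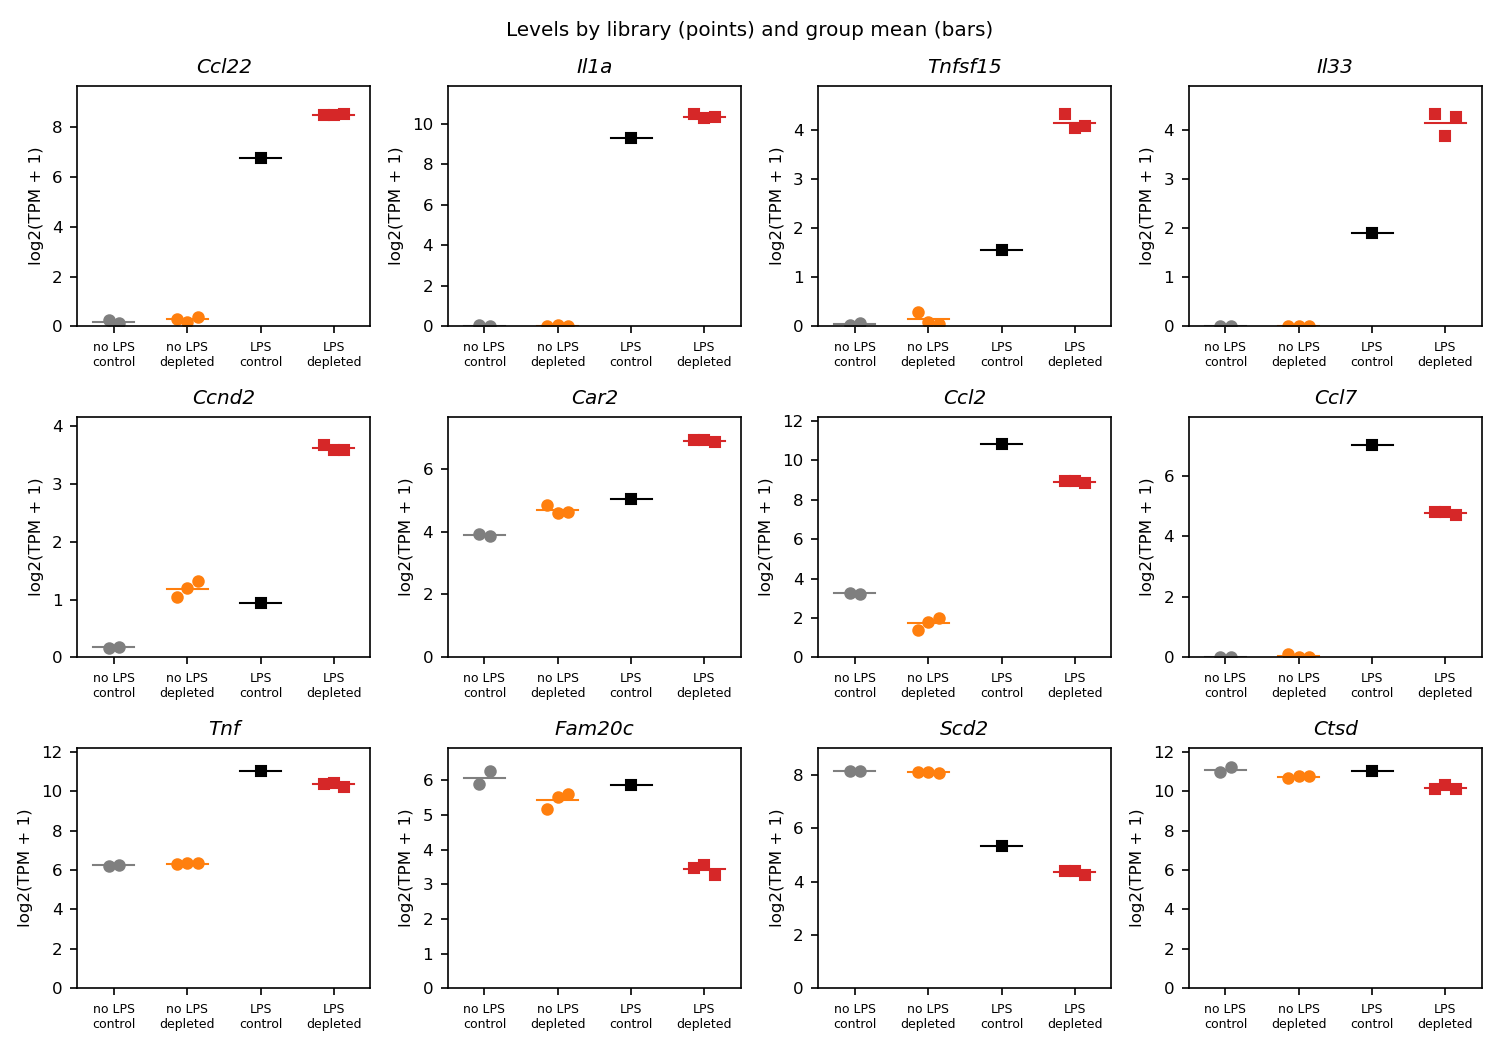
Each panel is 1 gene; the y axis is log2(TPM + 1) from 0 and the x axis holds the 4 groups. Points are libraries (2 and 3 without LPS, 1 and 3 with LPS) and bars are group means. Ccl22, Il1a, Tnfsf15, Il33, Ccnd2 and Car2 lay higher in the 3 depleted LPS libraries than in the control LPS library, and Ccl2, Ccl7, Tnf, Fam20c, Scd2 and Ctsd lay lower.

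Chemokines changed in both directions, 2 higher and 2 lower of 15 (13.3% each, against 0.89% and 4.38% over all genes). Ccl2 (chromosome 11, 82035571 to 82037453, plus strand), the main attractant of monocytes, was at 1820 TPM in control cells and 487, 488 and 456 TPM in depleted cells, 3.81-fold lower (-1.93 ± 0.19, adjusted p = 0.00369). Ccl7, a monocyte attractant that acts on the same receptor and lies 8258 bases downstream on the same strand, was at 128 TPM against 27.0, 26.7 and 25.4 TPM, 4.85-fold lower (-2.23 ± 0.11, adjusted p = 0.000682). Both differences are many times the spread of the 3 depleted libraries, but the 1 control library gives no spread of its own. Ccl22 (chromosome 8, 94745590 to 94751699, plus strand), an attractant of CCR4-bearing T cells, was at 107 TPM in control cells and 363, 361 and 368 TPM in depleted cells, 3.39-fold higher (1.75 ± 0.10, adjusted p = 0.000682). Cxcl11, a ligand of CXCR3, was at 187 TPM against 517, 444 and 548 TPM (1.42 ± 0.21, adjusted p = 0.0138). The abundant Ccl3 was at 19447 TPM against 17917, 18109 and 17233 TPM and was not called (-0.13 ± 0.08, 0.05 after TMM scaling). Cxcl10, a ligand of the same receptor as Cxcl11, was at 2754 TPM against 2804, 2700 and 2575 TPM, with overlapping groups.

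Promoters of 2 of these higher genes are printed since the LPS factors NF-kB and AP-1 act at such sites. The windows run from 250 bases before to 50 after the RefSeq start (GRCm38.p6), with matches in capitals. In Ccl22 the capitals mark a match to the NF-kB type site GGGANNNNCC on the opposite strand, and in Il1a a match to the AP-1 site TGANTCA.
Ccl22, chr8:94745434-94745733, plus strand: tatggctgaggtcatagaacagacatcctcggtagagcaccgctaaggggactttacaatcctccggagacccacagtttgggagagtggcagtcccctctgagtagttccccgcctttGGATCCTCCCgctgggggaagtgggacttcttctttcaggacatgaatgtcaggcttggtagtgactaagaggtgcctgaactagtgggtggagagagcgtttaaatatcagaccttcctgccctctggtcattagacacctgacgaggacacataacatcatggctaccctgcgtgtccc
Il1a, chr2:129309923-129310222, minus strand: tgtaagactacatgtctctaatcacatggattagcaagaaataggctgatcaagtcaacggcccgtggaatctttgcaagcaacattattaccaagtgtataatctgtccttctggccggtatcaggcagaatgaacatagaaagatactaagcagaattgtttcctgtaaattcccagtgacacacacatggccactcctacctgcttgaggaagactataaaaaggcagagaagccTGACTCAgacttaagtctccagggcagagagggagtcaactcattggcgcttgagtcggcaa
Searched on both strands, the NF-kB type site was in 27 (35.5%) of the 76 higher genes with a window, in 29.6% of lower genes and in 29.8% of all 9099 tested genes with one. The AP-1 site was in 9.21%, 6.58% and 6.22%, and the interferon response element GAAANNGAAA in 5.26%, 3.29% and 4.06%. Over all 32851 windows the shares were 20.7%, 7.81% and 3.44%. The shares of the higher and lower genes thus lay near those of all tested genes, and a match is only a run of letters, not a site in use. No window was in the table for Ccl2, Ccl7 and Ccnd2.

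Interferon-stimulated genes, which interferon beta switches on through its receptor, gave no call. None of 40 passed by limma, with 0 to 3 higher over the 5 scalings. At an unadjusted limma p under 0.05 were 5 of the 40, against 3031 of all 13711 genes. The interferon response element was in 60.0% of the 30 with a promoter window. Isg15, a ubiquitin-like antiviral protein, was at 2026 TPM in control cells and 2147, 2362 and 2180 TPM in depleted cells (0.14 ± 0.24). Bst2, which tethers virus particles to the cell, was at 1295 TPM against 1360, 1496 and 1354 TPM (0.11 ± 0.13). The list's median was 0.18 above that of all genes, and 20 of the 40 had all 3 depleted libraries above the control, against 15.8% over all genes.

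Classical activation genes were called lower in 2 of 20 (10.0%, against 4.38% over all genes) and higher in none. Nos2, the inducible nitric oxide synthase, was at 499 TPM in control cells and 478, 511 and 451 TPM in depleted cells, and Ptgs2, which makes prostaglandins, at 1564 TPM against 1638, 1367 and 1317 TPM. Both sets of values overlapped, and with TMM scaling the differences of -0.06 and -0.12 turned to 0.12 and 0.05. The 2 called members were Plau, the urokinase plasminogen activator, at 39.1 TPM against 15.3, 16.2 and 14.3 TPM (-1.30 ± 0.11, adjusted p = 0.00236), and Clec4e, a lectin receptor for mycobacterial glycolipid, at 719 TPM against 417, 364 and 369 TPM (-0.91 ± 0.09, adjusted p = 0.00369). Of 12 alternative activation markers 1 was called, the crosslinking enzyme Tgm2, at 60.3 TPM against 24.0, 29.3 and 22.4 TPM (-1.23 ± 0.17, adjusted p = 0.011). This 1 call is 8.33% of the list, against 4.38% called lower over all genes. Arg1, the arginase of alternative activation, did not pass the filter on low values, with 0.24 TPM in control cells and 0.0646, 0.667 and 1.05 TPM in depleted cells.

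Antigen presentation and inflammasome genes had no called member among 14 each. At an unadjusted limma p under 0.05 were 3 and 4 of them, against 3031 of all 13711 genes. B2m, the light chain of class I molecules, was at 3480 TPM against 3802, 3365 and 3678 TPM, and H2-D1, a class I heavy chain with close paralogs, at 1231 TPM against 1261, 1327 and 1272 TPM. Gsdmd, which forms the pyroptotic pore, was at 247 TPM against 330, 308 and 291 TPM (0.32 ± 0.13, adjusted p = 0.209), and the protease gene Casp1 at 251 TPM against 264, 242 and 269 TPM. Of 16 costimulatory and checkpoint molecules 2 were higher and 3 lower (12.5% and 18.8%, against 0.89% and 4.38% over all genes). Sirpa, the receptor of the signal that blocks engulfment, was at 152 TPM in control cells and 63.6, 66.8 and 63.3 TPM in depleted cells (-1.22 ± 0.11, adjusted p = 0.00268). Slamf7 was also lower (-0.96 ± 0.15, adjusted p = 0.0162, up to 0.0566). Vsir, the checkpoint protein VISTA, was at 4.96 TPM against 10.2, 11.0 and 10.8 TPM (0.97 ± 0.15, adjusted p = 0.0163). Tnfsf4, the OX40 ligand, was at 0.484 TPM against 3.31, 2.32 and 2.12 TPM (1.26 ± 0.25, adjusted p = 0.0318, up to 0.0647).

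Surface receptors of macrophages were lower in 4 of 20 members and higher in 1, against 4.38% and 0.89% over all genes. The lower count was 2 without any 1 of the resting depleted libraries or without depleted LPS library 3, and the higher count 0 without resting depleted library 1 or depleted LPS library 2 or 3. Adgre1, the marker F4/80, was at 168 TPM in control cells and 103, 103 and 96.1 TPM in depleted cells (-0.73 ± 0.11, adjusted p = 0.0146). Clec4d, a lectin receptor 6523 bases from Clec4e, was at 635 TPM against 410, 366 and 373 TPM (-0.73 ± 0.08, adjusted p = 0.00663). Itgam and Msr1, an integrin and a scavenger receptor, were lower by less (-0.44 and -0.40, adjusted p = 0.0297 for each, up to 0.0784 and 0.0733). Fcgr4, a receptor for IgG, went the other way, from 105 TPM to 163, 166 and 186 TPM (0.71 ± 0.13, adjusted p = 0.0292, up to 0.0714). Csf1r, the receptor of the growth factor on which macrophages depend, is among the 12 macrophage markers and was named after its value was seen. It was at 109 TPM in control cells and 42.8, 44.6 and 41.8 TPM in depleted cells (-1.32 ± 0.10, adjusted p = 0.00142). In bulk RNA a lower level per cell and fewer cells of a kind cannot be told apart.

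Among osteoclast differentiation genes 4 were higher and 1 lower of 8, against 0.89% and 4.38% over all genes. Without any 1 of the 6 depleted libraries, with or without LPS, 2 were higher. At rest 5 of the 8 were already higher, with a median of 0.89 against 0.44 with LPS. Acp5, the tartrate-resistant acid phosphatase, was at 13.2 TPM in control cells and 36.1, 40.1 and 34.0 TPM in depleted cells, 2.79-fold higher (1.41 ± 0.13, adjusted p = 0.00268). Mmp9, a gelatinase, was at 15.9 TPM against 38.5, 44.3 and 36.9 TPM, 2.51-fold higher (1.27 ± 0.12, adjusted p = 0.003). Dcstamp, needed for cell fusion, and Atp6v0d2, a subunit of the proton pump, were each higher by 0.44 (adjusted p = 0.049 and 0.0318, up to 0.097 and 0.0784 with a library left out). Ctsk, the bone collagen protease, went from 72.9 TPM to 42.9, 46.5 and 42.4 TPM (-0.72 ± 0.10, adjusted p = 0.0108). RAW cells are used as osteoclast precursors. The list's median with LPS was 0.55 above that of all genes. Matrix protease and remodelling genes were higher in 3 of 14 and lower in 1 (21.4% and 7.14%, against 0.89% and 4.38% over all genes). Besides Mmp9 and Plau these included the matrix metalloprotease gene Mmp19 (0.82 ± 0.14, adjusted p = 0.0219, up to 0.0547).

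GIV is known to act on G proteins, PI3K and Akt, and actin. Of 36 GIV family and trimeric G protein signalling genes 1 was higher and 1 lower (2.78% each, against 0.89% and 4.38% over all genes), both regulators that shut G alpha subunits off. Rgs16 was at 23.9 TPM in control cells and 77.1, 75.1 and 71.7 TPM in depleted cells, 3.12-fold higher (1.60 ± 0.16, adjusted p = 0.00355). Rgs2 was at 103 TPM against 69.9, 58.4 and 71.9 TPM (-0.62 ± 0.12, adjusted p = 0.034, up to 0.0742). The inhibitory G alpha subunit gene Gnai2 was at 230 TPM against 205, 214 and 199 TPM (-0.15 ± 0.10, 0.02 after TMM scaling) and was not called. Of 24 PI3K and Akt signalling genes 3 were lower (12.5%, against 4.38% over all genes) and none higher. Pik3cb, a catalytic subunit, was at 22.7 TPM in control cells and 10.7, 9.41 and 8.90 TPM in depleted cells, 2.35-fold lower (-1.15 ± 0.11, adjusted p = 0.00319). Phlpp1, a phosphatase that removes the activating phosphate of Akt, was at 7.31 TPM against 3.21, 2.94 and 3.15 TPM (-1.02 ± 0.12, adjusted p = 0.00684). Pik3cg, the catalytic subunit driven by G protein receptors, was at 15.1 TPM against 8.32, 9.55 and 7.68 TPM (-0.76 ± 0.11, adjusted p = 0.0135). Of 28 actin and migration genes 1 was called (3.57%), the GTPase Rac1, at 194 TPM against 156, 147 and 150 TPM (-0.36 ± 0.08, adjusted p = 0.0464, up to 0.112).

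Sterol and fatty acid synthesis genes were lower as a group. Of 29 tested 11 were called lower and none higher (37.9%, against 4.38% over all genes). All 29 differences were below 0, where the median of all genes was -0.12. For 28 of them all 3 depleted libraries lay below the control, as for 48.7% of all genes. Lss, which closes the sterol rings to lanosterol, was at 43.3 TPM in control cells and 19.4, 20.0 and 22.3 TPM in depleted cells, 2.11-fold lower (-1.04 ± 0.10, adjusted p = 0.00319). Scd2, a desaturase of stearoyl-CoA, was at 40.0 TPM against 20.2, 20.4 and 18.0 TPM (-1.0 ± 0.08, adjusted p = 0.00231), and Dhcr7, the last enzyme before cholesterol, at 7.69 TPM against 3.67, 3.63 and 3.14 TPM (-0.96 ± 0.14, adjusted p = 0.0137). The others included Scd1, Insig1, Sqle, Nsdhl, Fdft1, Fdps and Sc5d, between -0.80 and -0.47, of which Fdps and Sc5d reached adjusted p-values of 0.104 and 0.114 with a library left out. The median of -0.49 was 0.37 below that of all genes, and 0.32 to 0.37 below it over the 5 scalings, under which 8 to 11 were called lower. With all 10 libraries, or with the 4 LPS libraries alone, Lss, Scd2 and Dhcr7 were not called, so their calls rest on the libraries that estimate the spread. In the resting cells none of the 29 was called and the median was 0.00. Among 13 LXR target and cholesterol handling genes 3 were lower (23.1%, against 4.38% over all genes). These were the lysosomal cholesterol exporter Npc1 (-0.72, adjusted p = 0.0283, up to 0.0733), the cholesterol esterifying enzyme Soat1 (-0.61, 0.0467, up to 0.106) and the lipid droplet protein Plin2 (-0.58, 0.0264, up to 0.0704).

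Of 24 lysosomal genes 11 were called lower (45.8%, against 4.38% over all genes) and none higher. For 23 of 24 all 3 depleted libraries lay below the control, as for 48.7% of all genes. Gusb, the enzyme beta-glucuronidase, was at 174 TPM in control cells and 84.0, 92.2 and 78.0 TPM in depleted cells, 2.06-fold lower (-1.04 ± 0.12, adjusted p = 0.00684). Ctsc, a cathepsin that activates serine proteases, was at 95.4 TPM against 54.2, 42.5 and 50.7 TPM (-0.95 ± 0.13, adjusted p = 0.01). Ctsd (chromosome 7, 142375911 to 142388038, minus strand), the main aspartic protease of lysosomes, was at 2052 TPM against 1102, 1260 and 1082 TPM (-0.84 ± 0.13, adjusted p = 0.0156). Also lower were Hexa, Ctsb, Lamp1, Atp6v0d1, Ctss and Atp6v1b2, between -0.82 and -0.38, of which Atp6v1b2 reached an adjusted p of 0.0893 with a library left out. The list's median was 0.35 below that of all genes, and 0.32 to 0.36 below it over the 5 scalings, with 8 to 12 called lower. With all 10 libraries, or with the 4 LPS libraries alone, Gusb, Ctsc and Ctsd were not called. At rest 3 members were lower and the median was -0.12. The summed level of macrophage markers, which was lower in the same 3 libraries, moved with both groups, and its part was not tested.

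Lysosomal genes often carry the E-box letters TCACGTGA, at which the factor TFEB binds. These letters were searched after the differences were seen. They were in 5 (27.8%) of the 18 list members with a promoter window, against 2.25% of all tested genes, 3.73% of the lower genes and 0.974% of all windows. The window of Ctsd is printed as the member with the highest level among the 3 largest differences, with the match in capitals.
Ctsd, chr7:142387778-142388077, minus strand: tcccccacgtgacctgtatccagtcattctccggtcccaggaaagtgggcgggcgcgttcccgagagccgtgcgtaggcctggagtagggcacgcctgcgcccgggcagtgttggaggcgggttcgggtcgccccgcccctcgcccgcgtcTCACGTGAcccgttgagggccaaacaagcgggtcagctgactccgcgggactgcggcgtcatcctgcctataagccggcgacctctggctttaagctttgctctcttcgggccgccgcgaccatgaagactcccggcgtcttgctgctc
The sterol response element letters TCACNCCAC, also chosen afterwards, were in 1 (4.76%) of 21 sterol and fatty acid synthesis genes with a window and in 1.41% of all tested genes.

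**Figure D4:**
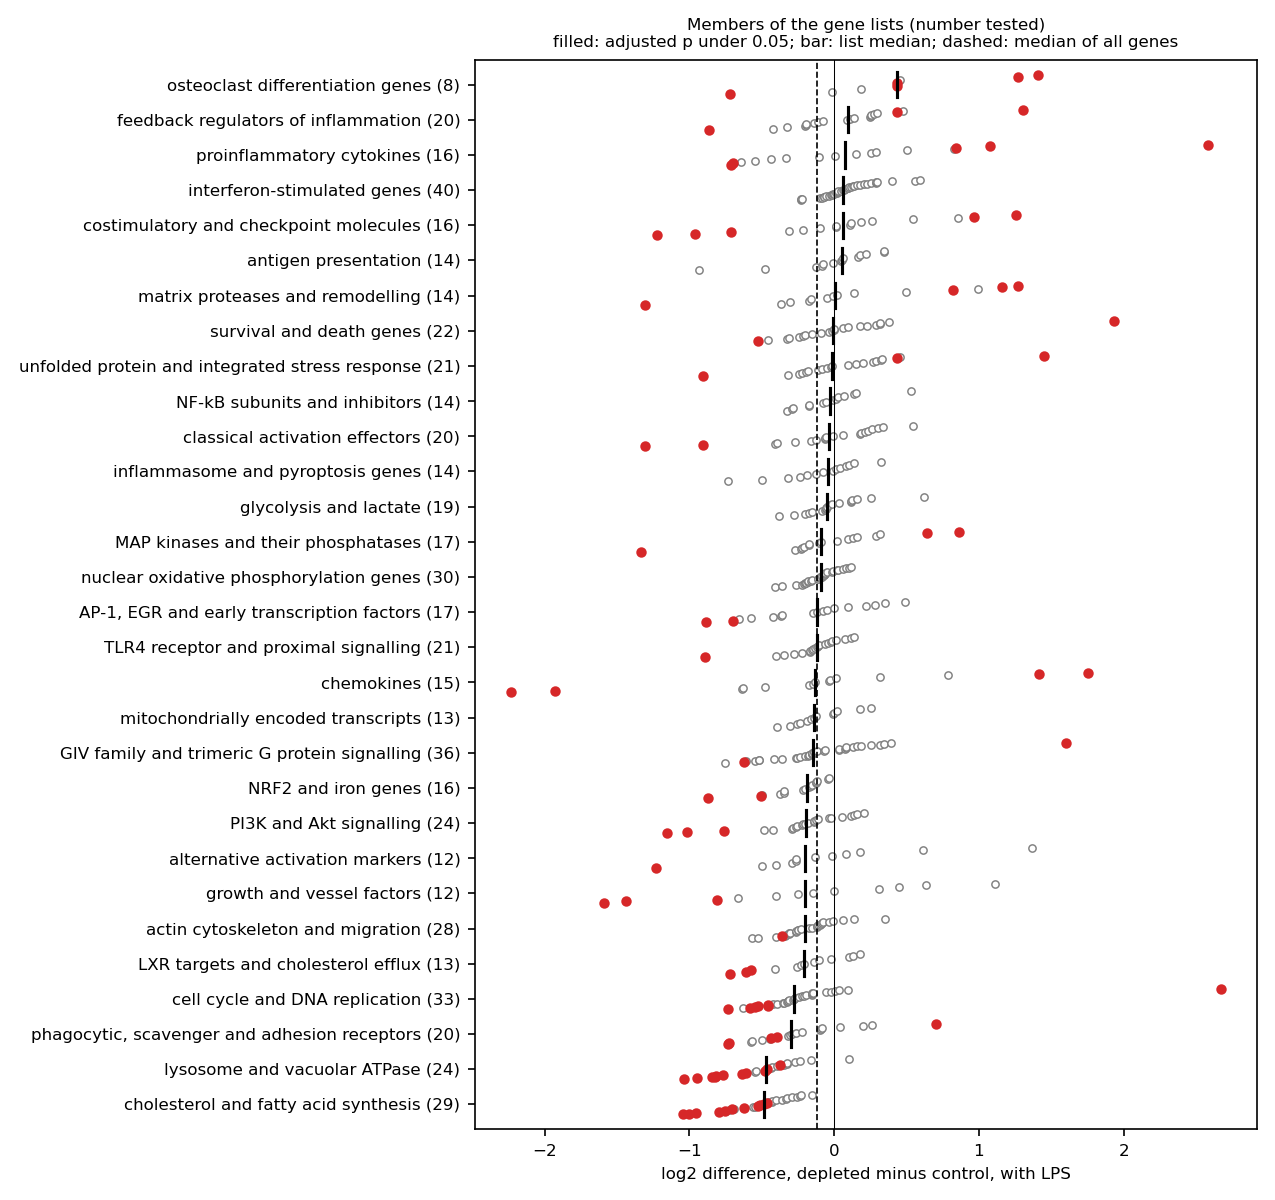
Each row is 1 of the 30 gene lists, with the number tested in brackets; the x axis is the log2 difference between depleted and control cells with LPS. Filled points are called genes, open points are not, black bars are list medians and the dashed line is the median of all genes at -0.12. The lists of cholesterol and fatty acid synthesis and of the lysosome lie lowest, with medians of -0.49 and -0.47, and osteoclast differentiation highest, at 0.44.

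Cell division genes were lower in 6 of 33 and higher in 1 (18.2% and 3.03%, against 4.38% and 0.89% over all genes). Ccnd2 (chromosome 6, 127125162 to 127152193, minus strand), cyclin D2, which drives entry into the cycle, was at 0.928 TPM in control cells and 11.8, 11.1 and 11.1 TPM in depleted cells. It was 12.2-fold higher (2.68 ± 0.16, adjusted p = 0.000682). The lower members act later in the cycle: Birc5, a survival and spindle protein, was at 40.4 TPM against 26.3, 22.4 and 23.2 TPM (-0.73 ± 0.10, adjusted p = 0.00928), and Ccnb1, cyclin B1, at 38.8 TPM against 24.8, 27.4 and 24.6 TPM (-0.58 ± 0.09, adjusted p = 0.015). Ccna2, Rrm2, Ccnb2 and Top2a were lower by 0.45 to 0.55 on the log2 scale (limma adjusted p up to 0.0778 for Ccnb2 and 0.0924 for Top2a with a library left out), and over the 5 scalings 2 to 6 members were called lower. Among 22 survival and death genes Bcl2a1a, an inhibitor of apoptosis, was at 6.51 TPM against 28.2, 29.0 and 26.1 TPM (1.94 ± 0.13, adjusted p = 0.000845). Its reads can be shared with the near-identical copies Bcl2a1b, at 226 TPM against 280, 265 and 283 TPM, and Bcl2a1d, at 343 TPM against 425, 419 and 438 TPM, neither of them called, so its value is uncertain. Mcl1, another inhibitor, was at 376 TPM against 265, 255 and 260 TPM (-0.53 ± 0.11, adjusted p = 0.0345, up to 0.0871).

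Of 21 unfolded protein and integrated stress response genes 2 were higher (9.52%, against 0.89% over all genes) and 1 lower (4.76%, against 4.38%). Ddit4, an inhibitor of mTORC1 signalling, was at 3.25 TPM in control cells and 10.3, 11.1 and 10.5 TPM in depleted cells, 3.27-fold higher (1.45 ± 0.17, adjusted p = 0.00684). Asns, asparagine synthetase, was at 75.4 TPM against 107, 99.1 and 101 TPM (0.44 ± 0.08, adjusted p = 0.0297, up to 0.0725), and Ppp1r15a, which ends the stress response, at 66.5 TPM against 37.1, 36.9 and 31.4 TPM (-0.90 ± 0.15, adjusted p = 0.0208, up to 0.0508). Of 16 NRF2 and iron genes 2 were lower (12.5%, against 4.38% over all genes). Hmox1, haem oxygenase 1, was at 501 TPM against 268, 298 and 256 TPM (-0.87 ± 0.12, adjusted p = 0.00992), and Fth1, the ferritin heavy chain, at 8596 TPM against 6040, 6054 and 6072 TPM (-0.51 ± 0.09, adjusted p = 0.0268, up to 0.0746). Hamp, the iron hormone hepcidin and outside that list, was at 1.39 TPM against 6.05, 11.2 and 8.79 TPM (1.98 ± 0.36, adjusted p = 0.0245, up to 0.0701).

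Energy metabolism had no called gene in 3 lists: none of 19 glycolysis, 30 nuclear oxidative phosphorylation and 13 mitochondrially encoded genes by limma. At an unadjusted limma p under 0.05 were 2, 5 and 1 of them, against 3031 of all 13711 genes. Pkm was at 1967 TPM against 2034, 2342 and 2063 TPM, and Gapdh at 1947 TPM against 1696, 1699 and 1855 TPM. Atp5b and Cox4i1, of the respiratory chain and ATP synthase, were at 851 and 604 TPM in control cells and 728 to 880 TPM and 529 to 609 TPM in depleted cells. The mitochondrial transcripts mt-Co1 and mt-Co2 likewise overlapped between the groups. Over the 5 scalings 0 to 2 glycolysis genes were called higher. Secreted growth and vessel factors were lower in 3 of 12 (25.0%, against 4.38% over all genes). Igf1, insulin-like growth factor 1, was at 48.4 TPM in control cells and 15.6, 17.3 and 18.9 TPM in depleted cells, 2.80-fold lower (-1.44 ± 0.14, adjusted p = 0.00355). Angpt2, an antagonist of the vessel receptor Tie2, was at 3.85 TPM against 0.622, 0.761 and 0.464 TPM (-1.59 ± 0.13, adjusted p = 0.00231), and Vegfb at 7.59 TPM against 4.22, 4.19 and 3.37 TPM (-0.81 ± 0.15, adjusted p = 0.0297, up to 0.0636).

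Several of the 12 largest differences in each direction lay outside these lists. Fam20c (chromosome 5, 138754514 to 138810077, plus strand), the kinase that phosphorylates secreted proteins, was at 57.1 TPM in control cells and 10.1, 10.7 and 8.65 TPM in depleted cells, 5.81-fold lower (-2.43 ± 0.21, adjusted p = 0.00268). Lhfpl2, a membrane protein gene, was at 35.0 TPM against 7.76, 9.22 and 8.21 TPM (-1.94 ± 0.12, adjusted p = 0.000682), and Bhlhe41, a transcriptional repressor, at 20.9 TPM against 5.47, 5.45 and 4.60 TPM (-1.83 ± 0.11, adjusted p = 0.000682). Tm4sf19 was at 61.9 TPM against 17.8, 18.3 and 15.2 TPM (-1.80 ± 0.11, adjusted p = 0.000682). Gm20056 begins 308 bases after its end on the same strand and was at 62.6 TPM against 16.3, 18.8 and 15.5 TPM, so the pair may not be independent transcripts. On the higher side, Car2, carbonic anhydrase 2, was at 32.0 TPM in control cells and 120, 121 and 114 TPM in depleted cells, 3.69-fold higher (1.85 ± 0.11, adjusted p = 0.000682). Npl, a lyase of sialic acid, was at 10.9 TPM against 42.4, 38.9 and 36.4 TPM (1.75 ± 0.13, adjusted p = 0.00173), and the long noncoding RNA gene Gm47034 at 2.75 TPM against 13.0, 9.90 and 11.4 TPM (1.72 ± 0.25, adjusted p = 0.0117).

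Small RNA genes made up 7 more of these 24 and rest on values listed at 0. Gm25492 and Gm44299 were listed at 0 in the control library, at 14.7, 4.97 and 6.83 TPM and at 8.66, 4.93 and 8.02 TPM in depleted cells. Gm44320, Gm23264, Gm26064 and Gm23297 were at 18.3, 12.6, 12.2 and 7.06 TPM in control cells and listed at 0 in all 3 depleted ones, and Gm27754 was at 10.8 TPM against 0, 0.278 and 0 TPM. An estimate of 0 for such short genes says little about their level, so no fold is given. The calls of Gm25492, Gm44299, Gm44320, Gm23264 and Gm26064 were lost with a library left out (adjusted p up to 0.0893, 0.0716, 0.0936, 0.0628 and 0.0658).

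The differences after LPS were then set beside those in the same lines without LPS, which come from other libraries. Without LPS 67 genes (0.489%) were higher and 100 (0.729%) lower in depleted cells, 167 in all (1.22%). Of these, 23 higher and 54 lower genes were called in the same direction with LPS, which is 46.1% of the 167 calls without LPS and 10.7% of the 722 with LPS, and none was called in the opposite direction. Ccl2 was at 8.77 and 8.43 TPM in the resting control libraries and at 1.64, 2.48 and 2.98 TPM in depleted cells (-1.53, adjusted p = 0.00554). Acp5, Npl, Mmp9, Rgs16, Zfp36l1, Asns, Vsir, Ccnd2 and Car2 were higher, and Igf1, Ctsc, Adgre1, Plau, Fth1, Tnfsf9 and Lhfpl2 lower, both without and with LPS. Rgs16 differed by 2.08 at rest and 1.60 with LPS, and Acp5 by 1.54 and 1.41. Ccnd2 differed by 1.02 at rest (adjusted p = 0.0108), Car2 by 0.80 (0.00823) and Lhfpl2 by -0.54 (0.0488), each less than with LPS on the log2(TPM + 1) scale. For Ccnd2, at 0.116 and 0.138 TPM in the resting control libraries, that scale understates the resting difference.

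For 31 genes (0.226%) the difference with LPS departed from that without, by the interaction term of the same model, 13 upward (0.0948%) and 18 downward (0.131%), and 28 of them were among the 722. For 6 of the 31, Ccl7, Tnfsf15, Il33, Ccl22, Il1a and Bcl2a1a, every resting library was under 1 TPM, so no resting difference could show. Their departures only repeat the differences with LPS and are not read as an effect of LPS on the difference. The other 25 had a level of 1 TPM or more in at least 1 resting library. For Ccnd2 this held in depleted cells only, with 0.116 and 0.138 TPM in the resting control libraries and 1.06 to 1.51 TPM in the depleted ones. The scale understates a resting difference at such levels, so its departure is not read as an effect of LPS either. Ddit4, at 0.808 to 1.49 TPM at rest, departed by 1.62 (adjusted p = 0.0487). Ccnd2 departed by 1.66 (0.0352), Car2 by 1.05 (0.0499) and Lhfpl2 by -1.40 (0.0281). Scd2 was at 271 to 284 TPM in all 5 resting libraries, and Lss at 38.5 to 42.6 TPM, with departures of -0.95 (0.0281) and -1.03 (0.037). Sirpa was at 301 to 366 TPM at rest and departed by -1.28 (0.0281). This count rests on the libraries in the fit: with all 10 libraries or without depleted LPS library 1 or 2 it was 0, with 226, 2363 and 2435 genes at an unadjusted limma p under 0.05. Without depleted LPS library 3 it was 9, without resting depleted library 1, 2 or 3 it was 10, 2 and 2, without resting control library 1 it was 11, and with TMM scaling it was 78.

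**Figure D5:**
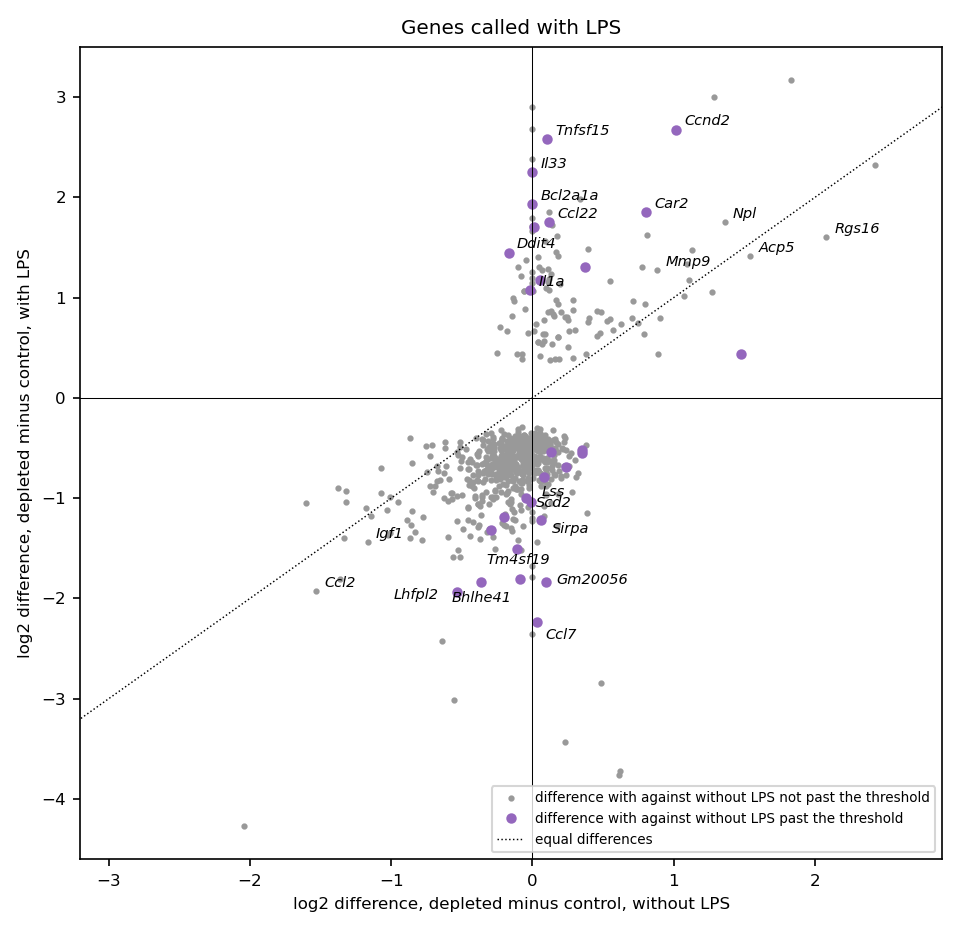
Each point is 1 of the 722 genes called with LPS. The x axis is the log2 difference between depleted and control cells without LPS and the y axis that with LPS; the dotted line marks equal differences. Purple points are the 28 genes whose differences depart from each other past the threshold. Rgs16, Acp5 and Ccl2 lie near the dotted line, while Ccl7, Tnfsf15 and Il33, under 1 TPM at rest, lie near 0 on the x axis by construction.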

How the data were processed

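Total RNA of RAW cells was sequenced as stranded paired reads, per the labels. The deposited values are log2(TPM + 1), which the authors obtained from kallisto 0.45.0 and GRCm38, per the submitters' processing notes; annotation, summing to genes and use of strand are not given in the sources used here, so reads of a gene and an antisense neighbour cannot be told apart. The table holds 52143 genes in 10 libraries, and 690 symbols belong to several identifiers; AA467197, Cdk2ap2 and Hspa4l are each called under 2 of them with equal values. Positions came from GENCODE M21 and matched 51336 genes.

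A gene entered the test where 2 or more libraries reached 1 on that scale. The fit used limma (3.58.1, under R 4.3.3) and 1 mean for each of 4 groups over 9 libraries, 5 residual degrees of freedom, a mean-variance trend and Benjamini-Hochberg adjustment. TPM keeps no read total and the labels give only an approximate depth for all samples alike, so the depth behind each library is unknown. Alternatives were all 10 libraries, the 4 LPS libraries, sets 2 and 3, the set number as a block, no or a stricter filter (log2 of at least 3), a pseudocount of 0.1 in place of 1, TMM (trims of 30% and 5%), quantile and 2 rescalings, eBayes settings, and each library left out. Genes are named by rule: Ccdc88a, 11 activation genes, the 12 largest called differences in each direction (symbol of a single gene, mean log2 of at least 3 in an LPS group), and per list the 3 largest called, or the 2 highest members where none was called; others are named after their values were seen, and some genes are not reported here. Members, 30 gene lists and 9 marker lists were chosen with earlier results of these data known. Code was tested on simulated data. Tables and figures used Python 3.11.15, pandas 2.3.3, numpy 2.4.6 and matplotlib 3.10.9.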

Additional observations from a re-analysis of the deposited data

Results flagged for a closer look

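The difference between depleted and control cells with LPS departed from that without LPS for 16 of the named genes, by the interaction term of the limma model. The departures, with LPS minus without, were 2.48 for Tnfsf15, 2.25 for Il33, 1.94 for Bcl2a1a, 1.66 for Ccnd2, 1.64 for Ccl22, 1.62 for Ddit4, 1.09 for Il1a and 1.05 for Car2. They were -2.27 for Ccl7, -1.93 for Gm20056, -1.71 for Tm4sf19, -1.46 for Bhlhe41, -1.40 for Lhfpl2, -1.28 for Sirpa, -1.03 for Lss and -0.95 for Scd2. Il33 and Bcl2a1a were listed at 0 in all 5 resting libraries, so their departures equal their differences with LPS by construction. Ccl7, Tnfsf15, Ccl22 and Il1a were under 1 TPM in all 5, and their departures too largely repeat the differences with LPS. Ccnd2 was at 0.116 and 0.138 TPM in the resting control libraries, where the scale understates its resting difference. Each departure rests on the single control library with LPS, and the number of genes past the threshold fell to 0 without depleted LPS library 1 or 2.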

How the results depend on the processing

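Among 96 genes other than Ccdc88a that the naming rule chose, 24 alternatives gave 2285 values: 1628 kept direction and side of the threshold, 500 kept direction and lost the call, 11 gained it and 50 changed sign. The set 2 pair alone has no test, and there 57 stayed within the spread between libraries and 39 moved. The counts of genes higher and lower were 0 and 0 for all 10 libraries, 35 and 34 for the 4 LPS libraries, 0 and 0 for sets 2 and 3 (3428 at an unadjusted limma p under 0.05), 22 and 61 with the replicate block, 347 and 321 with TMM, 228 and 305 with quantile normalization, 234 and 452 when the top 100 and mitochondrial genes were dropped before rescaling, and 208 and 408 over protein-coding genes. TMM scaling with all 10 libraries gave 16 and 5, and with the 4 LPS libraries 49 and 24; both were chosen after seeing the data. Leaving out 1 library gave 80 to 165 higher and 245 to 788 lower. Genes whose difference departed with LPS, 31 in all, numbered 0 with all 10 libraries, 1 with sets 2 and 3, 0 with the replicate block (1820 at an unadjusted p under 0.05), 360 without a filter, 73 with the stricter one, 78 with TMM, 66 when those top genes were dropped, 54 with robust eBayes, 3 with all 10 libraries and TMM, and 0 to 21 with 1 library left out; the 4 LPS libraries cannot give it. The cause of these shifts was not tested. Ccdc88a was at -0.90 in the set 2 pair alone, -0.89 with the replicate block and -0.82 to -0.68 with 1 library left out. Set numbers were not taken to pair the samples: deviations of same-numbered depleted libraries with and without LPS correlated at 0.0617, 0.0715 and 0.097, though each correlated best with its own number. Signs changed only for genes not called. After TMM scaling the differences were 0.0306 for Tlr4, 0.1196 for Nos2, 0.0545 for Ptgs2, 0.146 for Cxcl10, 0.0242 for Gapdh, 0.1114 for Atp5b, 0.0653 for Cox4i1 and 0.176 for mt-Co1. TMM with all 10 libraries or with the 4 LPS libraries gave 0.0089 or 0.0094 for Tlr4, 0.0959 or 0.0964 for Nos2, 0.0308 or 0.0313 for Ptgs2, 0.1224 or 0.1229 for Cxcl10, 0.0006 or 0.0011 for Gapdh, 0.0877 or 0.0882 for Atp5b, 0.0416 or 0.0421 for Cox4i1 and 0.1523 or 0.1528 for mt-Co1. Quantile normalization gave 0.0325 for Tlr4, 0.0282 for Nos2, 0.0069 for Cxcl10, 0.0148 for Gapdh, 0.0036 for Atp5b and 0.003 for Cox4i1. Dropping the top genes gave 0.0569 for Nos2, 0.0833 for Cxcl10, 0.0487 for Atp5b, 0.0026 for Cox4i1 and 0.1132 for mt-Co1, and protein-coding genes alone 0.0443, 0.0707, 0.0361 and 0.1006 for Nos2, Cxcl10, Atp5b and mt-Co1. The replicate block gave 0.0006 for Cxcl10, -0.0119 for B2m, -0.0339 for Casp1, 0.0053 for Atp5b and -0.0389 for mt-Co2, and sets 2 and 3 gave -0.0335 for mt-Co2. With 1 library left out, Nfkbia ranged from -0.0644 to 0.0525, Atp5b from -0.1253 to 0.0114, and mt-Co1 from -0.1019 to 0.0669 and mt-Co2 from -0.0335 to 0.0759.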

Other observations

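Gene families outside the lists were read by symbol after the differences were seen, so their counts are descriptions. Of 6 plexins tested, receptors for semaphorins, 3 were lower with LPS, against 4.38% over all genes: Plxna1 at 46.6 TPM in control cells and 15.3, 20.4 and 15.3 TPM in depleted cells, Plxna2 at 4.19 TPM against 0.96, 1.09 and 0.901 TPM, and Plxnd1 at 6.49 TPM against 3.12, 1.83 and 1.98 TPM (limma adjusted p = 0.0319, and 0.0834 with a library left out). Of 9 Toll-like receptors 3 were lower: Tlr13, a sensor of bacterial ribosomal RNA, with a difference of -1.40 (limma adjusted p = 0.000682), Tlr8 with -1.03 (0.0303, and 0.0776 with a library left out) and Tlr2 with -0.57 (0.00684). Tlr13 and Tlr8 were also lower at rest (-0.87 and -1.32). Tlr8 was not called with LPS after TMM scaling. Of 31 heat shock proteins and cochaperones 4 were higher and 1 lower, against 0.89% and 4.38% over all genes. Dnajb4 was at 16.0 TPM against 33.1, 27.7 and 30.8 TPM, and Bag3, a cochaperone of HSP70, at 29.1 TPM against 44.6, 43.8 and 42.7 TPM. Hspa1b was at 62.1 TPM against 104, 122 and 98.8 TPM, and its reads can be shared with Hspa1a. Hspa4l was higher by 0.56 (adjusted p up to 0.076 with a library left out), and Dnajb11, of the endoplasmic reticulum, was lower (-0.52, up to 0.0667).

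Pdcd1 and Lag3, picked for their values, encode inhibitory receptors best known from T cells, and T cell markers summed to at most 0.433 TPM. Pdcd1, which encodes PD-1, was at 3.28 TPM in control cells and 11.4, 13.2 and 11.9 TPM in depleted cells (1.62 ± 0.19, limma adjusted p = 0.00708). Lag3 was at 0.126 TPM against 2.65, 3.22 and 3.38 TPM (1.85 ± 0.21, adjusted p = 0.00684). Gpnmb, a glycoprotein of lysosome-rich macrophages, was at 1514 TPM against 516, 576 and 496 TPM (-1.52 ± 0.14, adjusted p = 0.00319). Macrophage genes also lower were Cx3cr1, the fractalkine receptor, at 22.4 TPM against 9.34, 9.14 and 8.45 TPM, and Cd33 at 11.2 TPM against 3.41, 4.33 and 3.49 TPM. All of these genes were chosen for their values.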
